A study of Mus musculus with 6 samples.

Results

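The 2 basonuclin genes, Bnc1 and Bnc2, and 5 genes that mark the ovarian surface epithelium, Upk1b, Upk3b, Lrrn4, Msln and Muc16, were followed through the ovary RNA-seq. They were chosen by symbol, made up 7 of the 44788 genes listed, and all 7 passed the filter on low counts that kept 19423 genes for testing. The samples were ovaries of 8-week-old C57BL/6 J mice, 3 from wild-type animals (WT, Bnc1+/+) and 3 from animals homozygous for the Bnc1tr allele (Bnc1tr/tr). The allele is a germline deletion of 5 bases in exon 4 of Bnc1 that shifts the reading frame and brings in a premature stop codon, so every cell of a Bnc1tr/tr mouse carried it. The deposited values were raw read counts per gene, and levels are given below as CPM, counts relative to library size after TMM scaling (a correction for libraries of different composition).

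Basonuclins are zinc-finger proteins of the nucleus. BNC1 is known from the basal layer of stratified epithelia and from germ cells, where it binds the promoters of ribosomal RNA genes, and BNC2 is a related protein with a wider distribution that includes mesenchymal cells. The ovarian surface epithelium is the single layer of modified mesothelium around the ovary. It shares with the peritoneal mesothelium the genes for mesothelin (Msln), the mucin MUC16, uroplakins (Upk1b and Upk3b) and the leucine-rich repeat membrane protein LRRN4. Whole ovaries were sequenced, so for any of these genes fewer cells that express it and less RNA per cell cannot be told apart.

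The paper names the bases that the Bnc1tr allele lacks as CCGGG, and exon 4 of the reference (chr7:81973190-81975045, 1856 bases) holds these letters in 1 place. From this match they were placed on the minus strand at chr7:81974418-81974422 (GRCm38). The 125 bases around them are shown because they hold both the change and what follows it, with the 5 deleted bases in capitals (chr7:81974358-81974482, minus strand, read 5′ to 3′). The second sequence shows, for the 33 bases at chr7:81974369-81974401, the stop codon that the shifted frame meets, in capitals.

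Bnc1 exon 4 around the deletion: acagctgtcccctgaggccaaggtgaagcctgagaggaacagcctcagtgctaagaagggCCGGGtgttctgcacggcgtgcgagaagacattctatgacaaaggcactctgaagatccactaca
Bnc1 exon 4 at the new stop codon: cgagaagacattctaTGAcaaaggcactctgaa

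In the reference sequence Bnc1 codes for 990 residues, and without these bases residue 353 was the first to change, 10 codons were read in the shifted frame and translation would stop after 362 codons. The frame up to the change held 35.6% of the reference codons. A search of the reference protein for the C2H2 zinc-finger pattern (2 cysteines and 2 histidines at set distances) found 3 matches in BNC1, starting at residues 356, 718 and 926, and none of them began before the first changed residue. The paper counts 3 pairs of zinc fingers as lost with the human mutation. The search allowed a single spacing between cysteines and histidines, so its matches are not a full count of fingers. BNC2 was read from the longest complete transcript that GENCODE marks as principal, 1 of 22 annotated for the gene, and its 1032 residues also held 3 matches, starting at residues 376, 768 and 970. Aligned with each other, BNC1 and BNC2 were identical at 47.4% of 963 residues, with 52.4% identity before the position of the change and 44.4% after it.

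**Figure D1:**
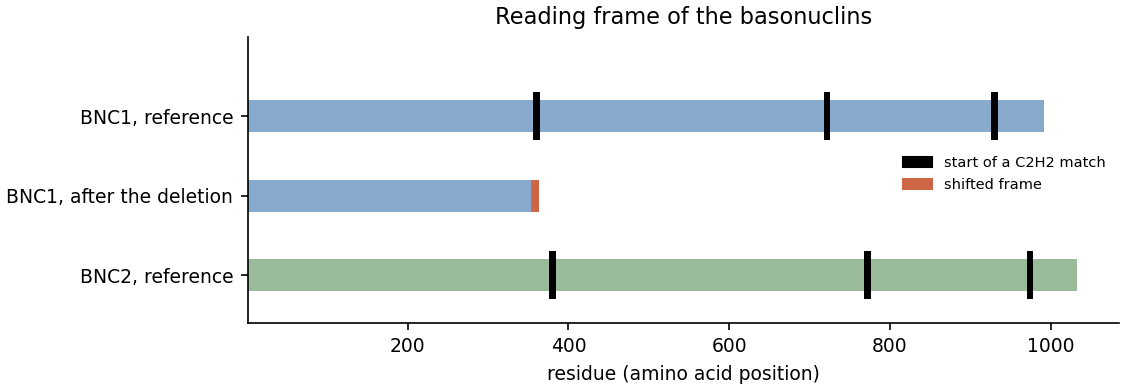
Reading frames of the reference BNC1, of BNC1 after the deletion and of the reference BNC2, drawn to scale along the residue number, with black bars at the start of each C2H2 match and the shifted frame in orange. The frame after the deletion ends at residue 362, and the 3 C2H2 matches of BNC1 start at residues 356, 718 and 926, after the first changed residue, 353. The matches are not a full count of zinc fingers.

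Of the 7 genes, Lrrn4 passed the test, with a higher level in Bnc1tr/tr ovaries, and 6 did not. The share of all tested genes that passed in either direction was 7.06%, with 2.88% higher and 4.19% lower in Bnc1tr/tr. The median log2 fold change of the 7 genes was 0.12, against 0.02 over all genes tested, and 4 of the 7 had a positive value. Levels did not overlap between the genotypes for 3 of the 7 genes, Bnc2, Lrrn4 and Upk1b, against 30.8% of all tested genes. The study calls its replicates biological, while the labels do not name the animals, and the p-values measure the spread between these samples. The differences were tested with edgeR's quasi-likelihood test (two-sided), with p-values adjusted over all 19423 genes by the Benjamini-Hochberg method and a threshold of 0.05.

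**Figure D2:**
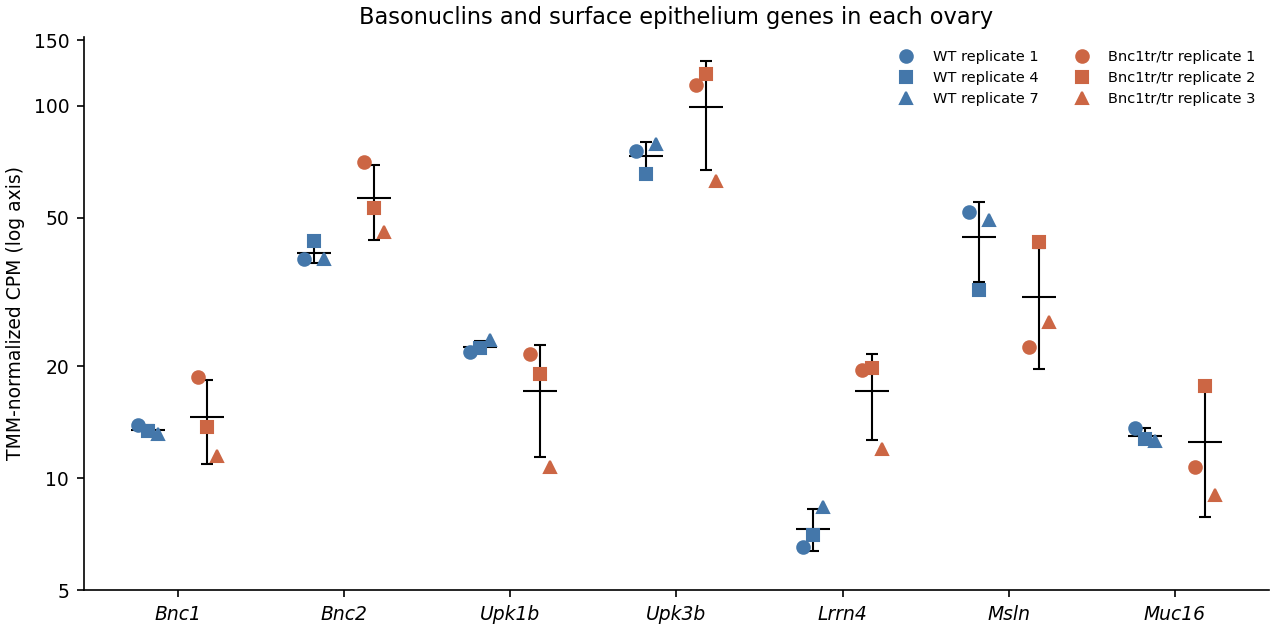
TMM-normalized CPM of the 7 genes in each of the 3 WT (blue) and 3 Bnc1tr/tr (orange) ovaries on a log axis, with black lines at the mean and 1 SD either side of it. Lrrn4 lay between 6.54 and 8.38 CPM in WT and between 12.0 and 19.8 CPM in Bnc1tr/tr ovaries, and Bnc1tr/tr replicate 3 was the lowest Bnc1tr/tr ovary for 6 of the 7 genes, all but Msln.

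Bnc1 was at 13.9, 13.4 and 13.1 CPM in WT replicates 1, 4 and 7 and at 18.7, 13.7 and 11.5 CPM in Bnc1tr/tr replicates 1, 2 and 3. The Bnc1tr/tr ovaries therefore included both the highest and the lowest value, and the groups overlapped. The log2 fold change was 0.12 (standard error 0.18, 95% confidence interval -0.30 to 0.53, edgeR adjusted p = 0.733), an interval that runs from 0.814-fold to 1.44-fold of the WT level. Its direction came from Bnc1tr/tr replicate 1, without which the log2 fold change was -0.10. Counts over the whole gene cannot tell transcripts with the deletion from those without it, and so they check neither the genotype labels nor the protein.

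Bnc2, the other basonuclin, was at 38.9, 43.3 and 38.9 CPM in WT ovaries and at 70.8, 53.2 and 45.8 CPM in Bnc1tr/tr ovaries. Every Bnc1tr/tr ovary lay above every WT ovary, by the narrowest margin between Bnc1tr/tr replicate 3 and WT replicate 4. The ratio of the fitted levels was 1.40 (95% confidence interval 1.09 to 1.80) and the log2 fold change 0.49 (standard error 0.16). Its unadjusted p was 0.0147, and it did not pass after adjustment with edgeR (adjusted p = 0.106), although DESeq2 put it under the threshold with the same log2 fold change (adjusted p = 0.0434). Without Bnc1tr/tr replicate 1, its highest ovary, the log2 fold change of Bnc2 was 0.29 (edgeR adjusted p = 0.150).

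Lrrn4, which codes for a membrane protein with leucine-rich repeats, was at 6.54, 7.04 and 8.38 CPM in WT ovaries, from 176, 233 and 243 reads. In Bnc1tr/tr ovaries it was at 19.5, 19.8 and 12.0 CPM, from 547, 514 and 340 reads. All Bnc1tr/tr ovaries were above all WT ovaries, and Bnc1tr/tr replicate 3 was the nearest to them. Lrrn4 rose 2.33-fold (95% confidence interval 1.66 to 3.28; log2 fold change 1.22, standard error 0.21, edgeR adjusted p = 0.0167). With any 1 of the 6 ovaries removed the log2 fold change of Lrrn4 lay between 1.10 and 1.42, but the edgeR adjusted p was 0.0595, 0.100 and 0.0502 without WT replicates 1, 4 and 7.

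Upk3b and Upk1b code for uroplakins, membrane proteins first known from the bladder lining, and the mesothelium uses both. Upk3b, the most abundant of the 7 genes, was at 75.5, 65.7 and 78.8 CPM in WT ovaries and at 114, 122 and 62.7 CPM in Bnc1tr/tr ovaries. The first 2 Bnc1tr/tr replicates were above all WT ovaries and the other one was below all of them. The log2 fold change was 0.44 (standard error 0.23, 95% confidence interval -0.09 to 0.97, edgeR adjusted p = 0.286), and it was 0.69 without Bnc1tr/tr replicate 3 (adjusted p = 0.0273). Upk1b went the other way in sign, from 21.8, 22.3 and 23.5 CPM in WT ovaries to 21.6, 19.1 and 10.7 CPM in Bnc1tr/tr ovaries. Its Bnc1tr/tr values were all below its WT values, but replicate 1 was so only by a margin smaller than the WT range. The log2 fold change of Upk1b was -0.40 (standard error 0.23, 95% confidence interval -0.93 to 0.14, edgeR adjusted p = 0.341), and -0.15 without Bnc1tr/tr replicate 3.

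Mesothelin and MUC16, the antigen measured as CA125, are surface glycoproteins that bind each other. Msln was at 51.8, 32.0 and 49.4 CPM in WT ovaries and at 22.5, 43.0 and 26.3 CPM in Bnc1tr/tr ovaries, with WT replicate 4 and Bnc1tr/tr replicate 2 out of line with the rest of their groups, so that the groups overlapped. Its log2 fold change was -0.54 (standard error 0.27, 95% confidence interval -1.16 to 0.09, edgeR adjusted p = 0.268), and it was -0.86 without Bnc1tr/tr replicate 2 (adjusted p = 0.0686) and -0.36 without Bnc1tr/tr replicate 1 (adjusted p = 0.468). Muc16 was at 13.6, 12.7 and 12.6 CPM in WT ovaries and at 10.7, 17.7 and 8.99 CPM in Bnc1tr/tr ovaries, where replicate 2 was above and the other two were below every WT ovary. The log2 fold change of Muc16 was -0.05 (standard error 0.24, 95% confidence interval -0.61 to 0.50, edgeR adjusted p = 0.915), and its sign changed when reads were scaled by library size alone (0.04). The intervals of both genes leave room, in 1 direction at least, for a difference of the size seen for Bnc2, so the depth and the number of ovaries did not separate a modest difference from none.

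**Figure D3:**
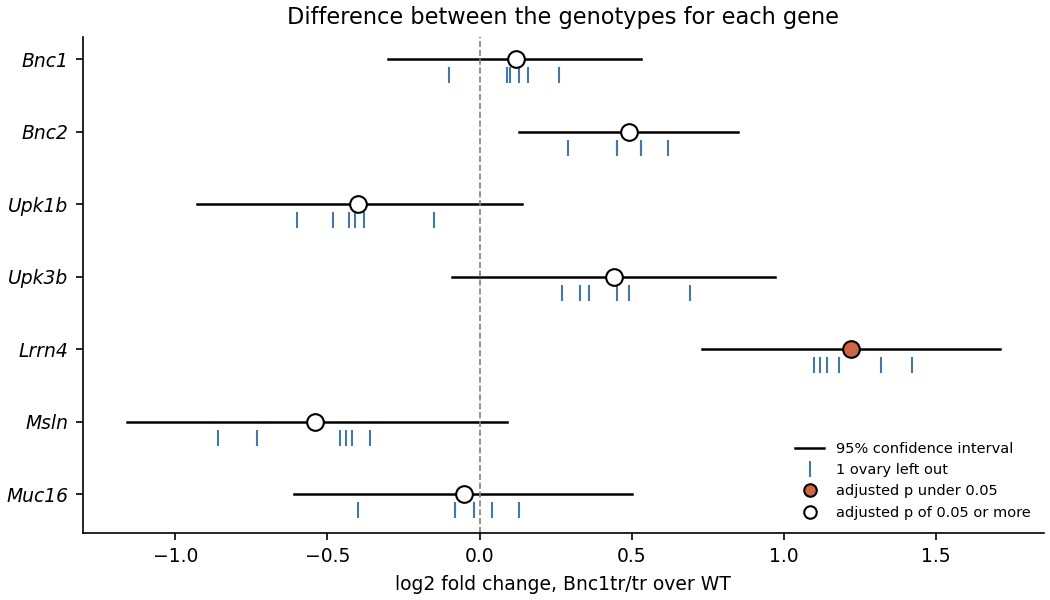
Log2 fold change of Bnc1tr/tr over WT ovaries for each gene (circles, filled where the edgeR adjusted p was under 0.05), with 95% confidence intervals as lines and the values with 1 ovary left out as blue ticks. Lrrn4 is the filled circle at 1.22, with leave-one-out values between 1.10 and 1.42, and the ticks of Bnc1 and Muc16 fall on both sides of 0.

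The WT ovaries were closer to each other than the Bnc1tr/tr ovaries for each of the 7 genes. The coefficient of variation over the 3 replicates ranged from 3.01% for Bnc1 to 24.3% for Msln in WT and from 22.7% for Bnc2 to 37.2% for Muc16 in Bnc1tr/tr ovaries. Over the 7 genes its median was 6.28% in WT and 32.3% in Bnc1tr/tr, against 10.5% and 13.3% over all genes tested with a value. It was larger in Bnc1tr/tr ovaries for 60.8% of those genes. These figures describe 3 ovaries a group, and no test was made of the spread.

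Levels of different genes were compared only per length, as CPM per kb of annotated exon sequence. In WT ovaries the order was Upk3b (mean 20.8 ± 1.93, SD, n = 3), Msln (14.5 ± 3.53), Upk1b (10.8 ± 0.418), Bnc2 (4.94 ± 0.311), Bnc1 (2.90 ± 0.0870), Lrrn4 (1.97 ± 0.256) and Muc16 (0.492 ± 0.0209). Among neighbours in that order only Msln and Upk1b overlapped between ovaries. In Bnc1tr/tr ovaries the order was Upk3b (28.2 ± 9.12), Msln (9.99 ± 3.56), Upk1b (8.20 ± 2.73), Bnc2 (6.92 ± 1.57), Lrrn4 (4.60 ± 1.19), Bnc1 (3.15 ± 0.794) and Muc16 (0.473 ± 0.175). Lrrn4 and Bnc1 changed places, although in Bnc1tr/tr ovaries their values overlapped, as did those of Msln and Upk1b and of Upk1b and Bnc2. Muc16 has 26350 bases of exon sequence, the most of the 7 genes, and its reads are spread over that length.

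The balance between the genes was read from the ratio of their reads within each ovary, which needs no scaling between libraries. All 21 pairs were computed, and 12 of them did not overlap between the genotypes, against 30.5% of all pairs among the 19348 tested genes with a read in every ovary. Lrrn4 took part in 6 pairs, and none of the 6 overlapped, but neither did 80.3% of its pairs with every other gene. The other 6 pairs without overlap came from the pairs that leave Lrrn4 out, and 30.5% is the share to set beside those. The count of 12 thus includes every pair of Lrrn4 and was not read as a shift shared by the 7 genes. Reads of Upk3b over Lrrn4 were at 11.5, 9.33 and 9.41 in WT ovaries and at 5.86, 6.18 and 5.24 in Bnc1tr/tr ovaries, and those of Upk1b over Lrrn4 at 3.33, 3.17 and 2.80 against 1.11, 0.965 and 0.891. Bnc1tr/tr replicate 3, which was low for most of the 7 genes, was no exception in these ratios.

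The uroplakin pair and the basonuclin pair were among the pairs without overlap, as were 30.5% of all pairs of tested genes with a read in every ovary. There were 3.47, 2.94 and 3.36 reads of Upk3b for each read of Upk1b in WT ovaries and 5.28, 6.40 and 5.87 in Bnc1tr/tr ovaries, a ratio of the means of 1.80. For the basonuclins there were 2.79, 3.23 and 2.96 reads of Bnc2 for each read of Bnc1 in WT ovaries and 3.78, 3.90 and 3.98 in Bnc1tr/tr ovaries, a ratio of the means of 1.30. In Bnc1tr/tr ovaries this ratio had a mean of 3.89 ± 0.102 (SD, n = 3), although the coefficients of variation of Bnc1 and Bnc2 themselves were 25.4% and 22.7% there. In contrast, Msln over Muc16 overlapped, with 3.80, 2.53 and 3.93 in WT and 2.10, 2.43 and 2.93 in Bnc1tr/tr ovaries. The 21 ratios share genes and are not independent, and with 3 ovaries against 3 they are given as descriptions.

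**Figure D4:**
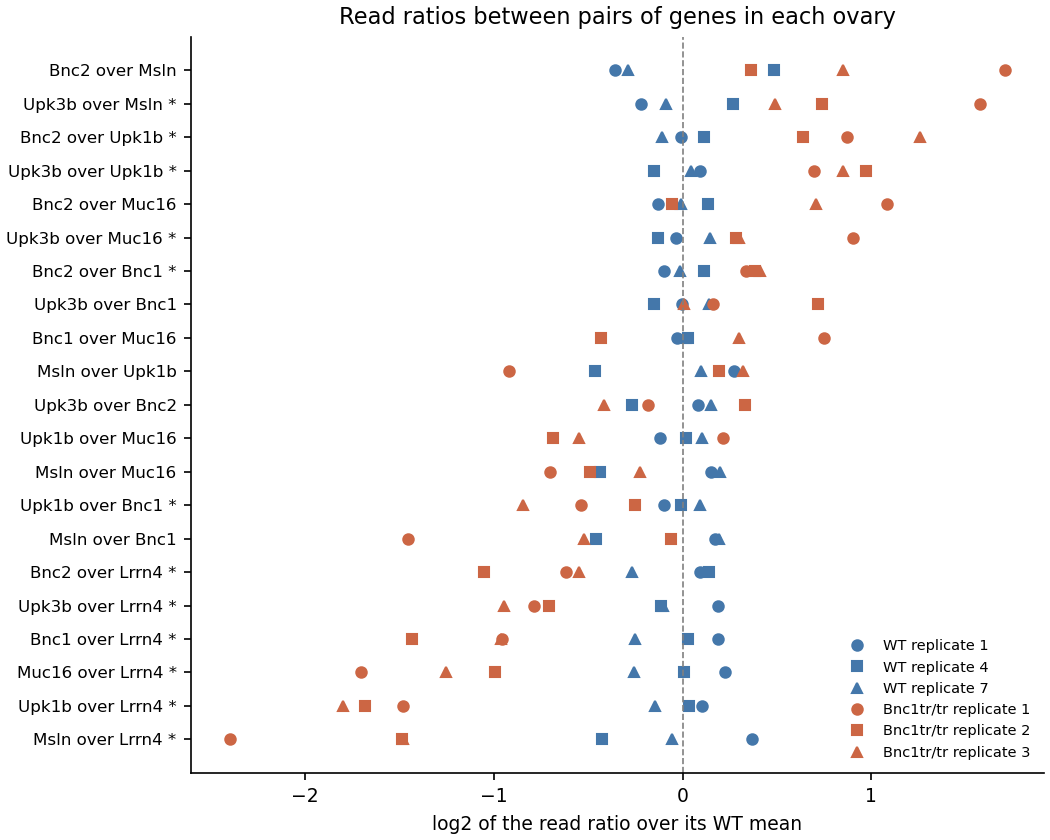
Read ratio of each of the 21 pairs of genes in each ovary, as log2 of the ratio over its WT mean, with WT ovaries in blue and Bnc1tr/tr ovaries in orange. An asterisk marks the 12 pairs without overlap, which include all 6 pairs with Lrrn4; over all pairs of tested genes with a read in every ovary the share without overlap was 30.5%, and over all pairs with Lrrn4 80.3%.

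Across the 6 ovaries the genes did not move as 1 group. The Pearson correlation of log2 CPM was 0.87 between Bnc2 and Lrrn4, 0.80 between Upk3b and Lrrn4, 0.75 between Bnc1 and Bnc2 and 0.68 between Msln and Muc16, but -0.71 between Bnc2 and Msln and -0.24 between Upk1b and Lrrn4. These values rest on 6 points that include the difference between genotypes, and they are descriptions. The mean log2 CPM of the 5 surface epithelium genes was 4.54 ± 0.12 (SD, n = 3) in WT and 4.63 ± 0.42 in Bnc1tr/tr ovaries. Among 13073 genes with a mean of at least 5 CPM, the genes most like this mean over the 6 ovaries were Gpm6a (r = 0.984), Evpl (0.982), Son (0.977), Eea1 (0.975) and Lhx9 (0.973). Gpm6a was the only one of them already on a list of other surface epithelium and mesothelium genes. Among the genes most like Bnc1 were Scd1 (0.993), Aldh2 (0.987), Crlf3 (0.984) and Itfg2 (0.983), and those most like Bnc2 were Kcnab1 (0.996), Creb1 (0.995), Xndr (0.989), Adat1 (0.984) and Cebpz (0.982).

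Promoter sequence, from RefSeq on GRCm38.p6, was found for 5 of the 7 genes, and not for Upk1b and Msln. The one for Bnc2 (chr4:84610148-84610447, minus strand) belongs to a start inside the annotated locus (chr4:84275095-84675275), downstream of its 5′ end. The promoters of Lrrn4 and Upk3b are shown because these were the most strongly raised gene and the most abundant gene, and because both held the letters GGAATG, the core of the site of TEAD factors, on one of the strands (capitals). Each runs from 250 bases before to 50 bases after the annotated start, Lrrn4 at chr2:132880813-132881112 on the minus strand and Upk3b at chr5:136038246-136038545 on the plus strand.

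Lrrn4 promoter: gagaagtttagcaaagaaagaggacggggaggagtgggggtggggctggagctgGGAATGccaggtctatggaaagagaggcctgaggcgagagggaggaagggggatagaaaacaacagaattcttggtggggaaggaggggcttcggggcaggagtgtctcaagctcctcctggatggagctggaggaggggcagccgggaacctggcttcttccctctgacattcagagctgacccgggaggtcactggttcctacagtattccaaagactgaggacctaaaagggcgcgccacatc
Upk3b promoter: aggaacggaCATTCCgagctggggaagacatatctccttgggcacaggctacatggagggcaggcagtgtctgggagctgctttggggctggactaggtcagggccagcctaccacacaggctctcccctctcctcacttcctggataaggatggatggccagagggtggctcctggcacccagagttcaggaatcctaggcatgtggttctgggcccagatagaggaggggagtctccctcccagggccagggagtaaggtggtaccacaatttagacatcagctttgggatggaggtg

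The match began 196 bases before the start of Lrrn4 and 241 bases before that of Upk3b. The promoters of Bnc1 and Muc16 and that of the internal start of Bnc2 held no match, and 14.6% of 32544 promoters of the same length held at least 1 on either strand. The Bnc1 promoter, with a GC content of 83.3%, held 6 matches to GGGCGG, the GC box of SP1, which 35.9% of all promoters held and the other 4 promoters did not. CANNTG, the E-box, was in the promoters of Bnc2, Upk3b and Muc16 and in 72.3% of all promoters, and CCAAT (37.4% of all) and TATAAA (13.6%) were in none of the 5. A match describes letters only, and the motifs were picked with the levels of these genes known.

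Other genes of the same tissue and of the same families were counted on lists. The share to set beside each list count below is that over all tested genes, 2.88% higher and 4.19% lower in Bnc1tr/tr (7.06% in either direction). Of 18 other surface epithelium and mesothelium genes tested, 1 rose, Pdpn, which codes for podoplanin, and none fell. That count was near the share over all tested genes, and the median log2 fold change of the list was 0.18. Pdpn was at 47.4, 47.7 and 46.9 CPM in WT and at 59.4, 58.7 and 62.4 CPM in Bnc1tr/tr ovaries (log2 fold change 0.35, edgeR adjusted p = 0.0330). The ends of that list did not pass, Lgr5, a receptor found on stem cells of the surface epithelium, at -0.98 (adjusted p = 0.0985) and Cdh1, E-cadherin, at 0.58 (adjusted p = 0.148). Krt7, a keratin of the surface epithelium, was present in every ovary, between 37.2 and 57.4 CPM. Wt1, which granulosa cells also express, lay between 54.8 and 69.1 CPM, and its correlation with the mean of the 5 surface epithelium genes was 0.06.

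Of 13 relatives of the 7 genes, 8 were tested, and 2 rose and 1 fell, with a median log2 fold change of 0.13. The membrane mucins Muc4 and Muc20 rose, Muc4 from 9 to 16 reads in WT to 35 to 104 reads in Bnc1tr/tr ovaries (log2 fold change 2.63, edgeR adjusted p = 0.0148) and Muc20 from 6 to 14 reads to 43 to 84 reads (2.94, adjusted p = 0.00893). Lrrn1, a relative of Lrrn4, fell, from 144, 180 and 280 CPM in WT to 32.8, 56.5 and 63.7 CPM in Bnc1tr/tr ovaries (log2 fold change -1.98, adjusted p = 0.0112), in the direction opposite to Lrrn4. Among the other uroplakins, Upk2 was at 0 reads in 5 of the 6 ovaries (up to 3 reads, or 0.0906 to 0.115 CPM, would be allowed by a count of 0), Upk3a at 6 to 10 reads and Upk1a at 16 to 36 reads.

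A cell type and a cell function in which BNC1 is known to take part were covered by 2 further lists. None of 9 tested basal keratinocyte genes passed (median 0.47, from Krt14 at -0.65 to Krt15 at 0.88), and Krt5, the defining keratin of that layer, was at 0 or 1 read. None of 14 genes of RNA polymerase I and ribosomal RNA synthesis passed either, with values between -0.17 (Polr1e) and 0.38 (Taf1a) and a median of 0.11.

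**Figure D5:**
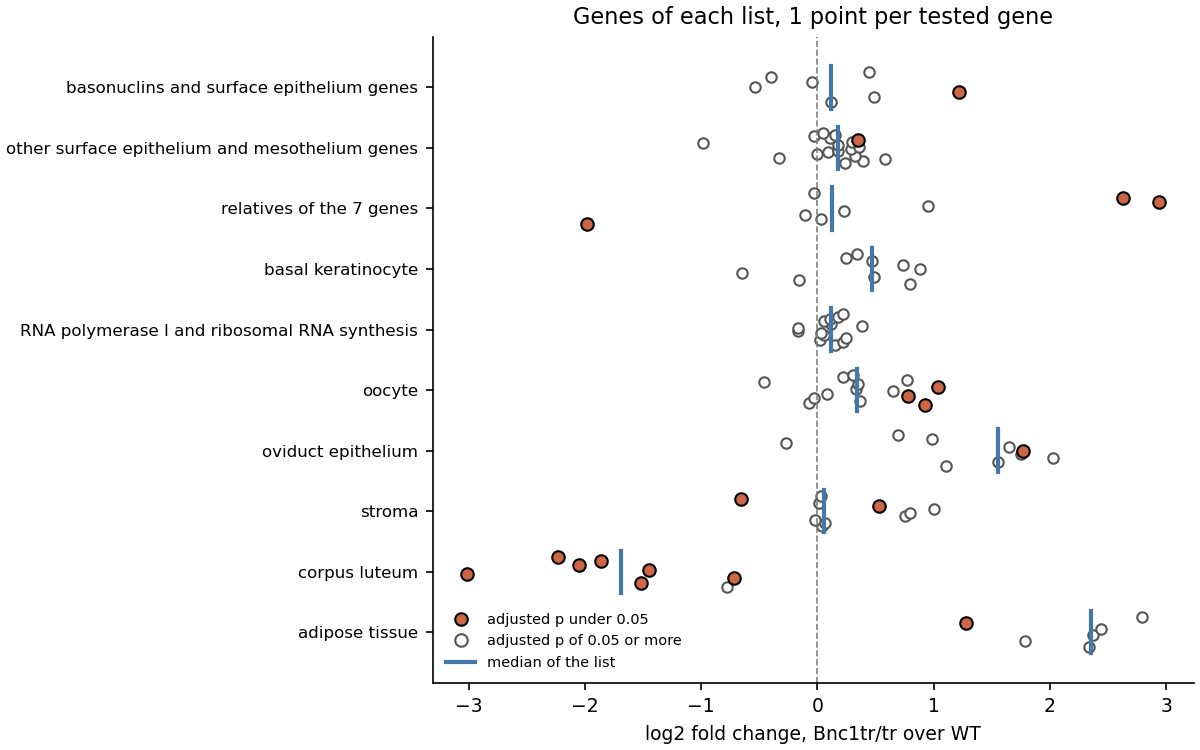
Log2 fold change of Bnc1tr/tr over WT ovaries for each tested gene of each list, filled where the edgeR adjusted p was under 0.05, with the median of the list as a blue line. Of the 7 basonuclin and surface epithelium genes only Lrrn4 is filled, and the corpus luteum list, with a median of -1.69, lies apart on the left.

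Markers of other tissues moved with the genotype or with single ovaries. Of 8 corpus luteum markers, 7 fell, Lhcgr (log2 fold change -3.01, edgeR adjusted p = 2.4e-04), Star (-2.23, 0.0374), Ptgfr (-2.05, 0.0349), Scarb1 (-1.86, 4.1e-04), Cyp11a1 (-1.52, 0.0261), Prlr (-1.45, 0.0134) and Hsd3b1 (-0.72, 0.0391). The median of the 8 was -1.69, and their summed level was 22621 to 26418 CPM in WT and 6953 to 12454 CPM in Bnc1tr/tr ovaries. Of 14 oocyte markers, Gdf9, Bmp15 and Oosp1 rose (log2 fold changes 0.78, 0.93 and 1.04, edgeR adjusted p = 0.0458, 0.0204 and 0.0262), with a median of 0.34 and Sohlh1 lowest at -0.46. Of 10 stroma markers, Nr2f2 rose (0.53, adjusted p = 0.0378) and Pdgfrb fell (-0.66, adjusted p = 0.0191), with a median of 0.05 and Lum highest in fold (77.3 CPM in WT and 155 CPM in Bnc1tr/tr ovaries, adjusted p = 0.0700). Of 9 oviduct markers tested, Pax2 rose (1.77, adjusted p = 0.0330), and the others lay between Rsph1 at -0.27 and Foxj1 at 2.03. Their part in the levels of the 7 genes was not tested.

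Adipose and oviduct RNA differed between ovaries of the same genotype. The summed level of 6 adipose markers was 45.4, 13.9 and 83.8 CPM in WT and 289, 219 and 29.8 CPM in Bnc1tr/tr ovaries, with Plin1 higher (log2 fold change 1.28, edgeR adjusted p = 0.0442), Retn highest at 2.79 (adjusted p = 0.169) and a median of 2.36. The median correlation of these markers with the mean of the 5 surface epithelium genes was 0.76 (from 0.46 for Plin1 to 0.80 for Cfd), against -0.02 over all genes compared. For the 18 other surface epithelium and mesothelium genes the median was 0.27, from -0.53 for Krt8 to 0.98 for Gpm6a. The same 2 Bnc1tr/tr ovaries, replicates 1 and 2, were the highest for adipose markers and for Bnc2, Upk3b and Lrrn4. In Bnc1tr/tr replicate 3 the summed adipose level was below that of WT replicates 1 and 7. Adipoq (2.43 CPM), Cfd (9.38 CPM), Retn (1.02 CPM) and Cidec (1.30 CPM) in that ovary were also below those ovaries and above WT replicate 4. Its Pck1 (0.211 CPM) was below every WT ovary, and only its Plin1 (15.5 CPM) was above every WT ovary (8.92 to 12.7 CPM). The same ovary was above every WT ovary for Lrrn4 (12.0 CPM) and Bnc2 (45.8 CPM) and below every WT ovary for Upk3b (62.7 CPM) and Upk1b (10.7 CPM). With the 2 adipose-rich ovaries left out, the log2 fold change was 0.71 for Lrrn4, 0.18 for Bnc2, -0.23 for Upk3b and -1.08 for Upk1b. These values rest on a single Bnc1tr/tr ovary, replicate 3, so the spread within that genotype could not be measured. That ovary also had the most oviduct RNA (summed level 576 CPM), and without it the log2 fold change of Upk1b was -0.15.

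The summed level of the oviduct markers was 168 CPM in WT replicate 1 and 576 CPM in Bnc1tr/tr replicate 3, and between 45.6 and 55.9 CPM in the other 4 ovaries. Without the ovary of each genotype that had the most, Lrrn4 had a log2 fold change of 1.34 (edgeR adjusted p = 0.0291) and Bnc2 of 0.58 (adjusted p = 0.172), Bnc1 was at 0.28 (0.557), Upk3b at 0.70 (0.0808), Upk1b at -0.18 (0.615), Msln at -0.32 (0.704) and Muc16 at 0.17 (0.807). Depth was similar throughout, with 25247770 to 34406296 counted reads per ovary, and the first principal component, with 47.1% of the variance, separated the genotypes.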

How the data were processed

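Total RNA was extracted with TRIzol from ovaries of 8-week-old C57BL/6 J mice, and single-end libraries made with the Ion Total RNA-Seq kit were read on the Ion Proton. The authors deposited raw read counts per gene symbol, without normalization, for 3 WT and 3 Bnc1tr/tr ovaries. The submitters' processing notes name the mouse build mm10 and a pig build, while the aligner, the counting tool and the annotation are not given in the sources used here. Whether the counting used strand is not known, so reads of genes that overlap Bnc1, Bnc2 and Muc16 in the annotation (pseudogenes and a short RNA) may have been counted with them.

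Genes were filtered with filterByExpr (minimum count 10), scaled with TMM and tested with edgeR 4.0.16 in R 4.3.3 (quasi-likelihood test, two-sided, Benjamini-Hochberg adjustment over 19423 genes, threshold 0.05). Standard errors were taken from the fold change and its F statistic. The log2 CPM behind correlations used a prior count of 2. The floor of 3 counts for a count of 0 covers counting error only. Totals were 25247770 to 34406296 counts per ovary. Replicates of a genotype differed by more than counting noise (chi-square per degree of freedom 15.6 to 58.5), so no library was counted as a copy of another. Loci, exon lengths and coding sequence came from GRCm38 with GENCODE M21, promoters from RefSeq (GRCm38.p6), read with Python 3.11.15 and Biopython 1.88. The pipeline was tested on simulated data.

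The genes and lists were chosen with earlier results of these data known. Named were the 7 genes, every listed gene past the threshold, the highest and lowest gene of each list, and the 5 genes most correlated with Bnc1, with Bnc2 and with the mean of the other genes, of which 1 is not reported here. Krt7, Wt1, Krt5 and the other uroplakins were named as marker checks. Alternatives were DESeq2 size factors, library size, no filter, at least 10 counts in every ovary, DESeq2 1.42.0, limma-voom (limma 3.58.1) and leaving out each ovary. Leaving out the ovaries with most oviduct RNA or most adipose RNA was added after seeing the data.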

Additional observations from a re-analysis of the deposited data

How the results depend on the processing

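Among the 7 genes, the log2 fold changes of Bnc2, Upk1b, Upk3b, Lrrn4 and Msln kept their sign under 12 alternative settings or sets of ovaries, and Lrrn4 was called in 9 of the 12. DESeq2 called 2 of the 7 (Lrrn4 and Bnc2), and leaving out 1 ovary gave 0 to 2. With 1 ovary left out, Bnc1 ranged from -0.10 to 0.26 and Muc16 from -0.40 to 0.13. Bnc1 reversed without Bnc1tr/tr replicate 1 (-0.10) and without the 2 adipose-rich ovaries (-0.24), the latter of which also reversed Upk3b (-0.23). Muc16 reversed with library size only (0.04), without Bnc1tr/tr replicate 1 (0.04) or 3 (0.13) and without the oviduct-rich ovaries (0.17). Scaling by library size alone moved the median log2 fold change of all genes from 0.02 to 0.12.

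Over all genes, 1372 were called, against 2420 with DESeq2, 320 to 1282 with 1 ovary left out (fewest without WT replicate 4), 304 without the oviduct-rich ovaries and 320 without the adipose-rich ones. With 1 ovary left out, the lists had the following numbers called: other surface epithelium genes 0 to 2, relatives 0 to 3, oocyte 0 to 6, oviduct 0 to 2, stroma 0 to 2, corpus luteum 2 to 6 and adipose 0 to 1. DESeq2 called 2 other surface epithelium genes, 1 basal keratinocyte, 5 oocyte, 2 oviduct and 4 stroma genes. Without a filter, 0 other surface epithelium and 5 oocyte genes were called, and with library size only, 5 oocyte genes and 1 gene of the RNA polymerase I list. With at least 10 counts in every ovary, 1 relative of 6 tested was called, since this filter removed Muc4 and Muc20 before the test, and with limma-voom 0 adipose genes. Without the oviduct-rich ovaries, 0 other surface epithelium, 0 oocyte, 0 oviduct, 0 stroma, 3 corpus luteum and 0 adipose genes were called. Without the adipose-rich ovaries the counts were 0 other surface epithelium, 1 stroma and 0 adipose genes. The cause of these changes was not tested, and the smaller number of ovaries was not told apart from the loss of a particular ovary.

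No paired analysis was possible because the genotypes share only 1 replicate number. With 3 ovaries a genotype and counts of 176 to 547 reads for Lrrn4, the intervals hold both counting error and the spread between ovaries.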
